A study of Mus musculus with 6 samples.

Results

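Immediate early and activity-induced genes are a group of transcripts that cells switch on within minutes to hours of a stimulus. Their members were taken by symbol from a list of 35 genes, and all 35 were found once among the 32285 genes of the deposited count matrices. The nuclei came from frozen pons and medulla of wild-type male C57BL6/J mice. One group of 3 libraries was from mice under chronic intermittent hypoxia (CIH), and the other 3 were from mice kept in room air (normoxia). Both groups were weaned on postnatal day 21, and the exposure ran from day 22 to day 43. In CIH, 60 seconds of nitrogen took chamber oxygen down to between 4.5 and 5%, and up to 5 minutes of compressed air brought it back to 21%. The cycle was given 80 times a day, over 8 hours, on 21 days. The interval between the last cycle and the collection of the tissue, which bears on transcripts this short-lived, is not given in the sources used here. Nuclei were stained and sorted before capture, so nuclear RNA is what was counted. Nothing in the labels says whether each library came from 1 animal, so the p-values below reflect only how far these libraries lie apart.

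The libraries held between 26733243 and 46754345 unique molecular identifiers (UMIs, each standing for 1 captured RNA molecule), and 40139 nuclei passed a minimum of 500 genes and a mitochondrial limit of 5%. CIH replicate 1 and normoxia replicate 2 shared 1563 cell barcodes, 33.9% and 21.1% of their barcodes, where other pairs of libraries shared 3 to 38. The shared barcodes carried a median of 7.95-fold more UMIs in CIH replicate 1. Their copies in normoxia replicate 2 were set aside, 1163 nuclei or 17.6% of that library's nuclei, which left 38976. No member passed the test between CIH and normoxia in any class with or without these copies. CIH replicate 3 stood apart in its median mitochondrial share of 0.366%, in its astrocytes (6.52% of nuclei) and in its endothelial nuclei (4.47%).

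In nerve cells, calcium entry and receptor signals activate kinases, which phosphorylate transcription factors already bound at these genes. CREB binds the cyclic AMP response element (CRE), and serum response factor with its partners binds the serum response element. The first genes to respond encode transcription factors (FOS, JUN, EGR, NR4A, KLF families and NPAS4). Others encode synaptic proteins (Arc, Homer1, Nptx2), a growth factor (Bdnf) and brakes on the signal, such as the dual-specificity phosphatases of the Dusp genes, which inactivate MAP kinases. Several of them also respond to stress, to growth factors and, in vessels, to blood flow, so they are not markers of neuronal firing alone. In the brainstem their proteins have long been used to map neurons that respond to hypoxia.

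Promoters are shown for members whose levels are described below: the 3 NR4A genes, which were highest together in granule neurons, Fos as the archetype of the group, and Btg2 and Dusp1, which hold a complete CRE. Each is the RefSeq sequence of up to 250 bases before the annotated start (build GRCm38.p6), 5′ to 3′ on the gene's own strand, ending before any exon of the gene annotation. Capitals mark the CRE core TGACG, read on either strand as TGACG or CGTCA, and the complete CRE TGACGTCA, which holds 2 overlapping cores.
Fos, chr12:85473640-85473889, + strand: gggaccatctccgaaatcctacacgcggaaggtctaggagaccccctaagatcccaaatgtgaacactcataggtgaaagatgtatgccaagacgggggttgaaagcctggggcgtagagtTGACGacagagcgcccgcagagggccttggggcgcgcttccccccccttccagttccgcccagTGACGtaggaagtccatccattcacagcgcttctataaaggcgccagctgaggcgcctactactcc
Nr4a1, chr15:101266596-101266845, + strand: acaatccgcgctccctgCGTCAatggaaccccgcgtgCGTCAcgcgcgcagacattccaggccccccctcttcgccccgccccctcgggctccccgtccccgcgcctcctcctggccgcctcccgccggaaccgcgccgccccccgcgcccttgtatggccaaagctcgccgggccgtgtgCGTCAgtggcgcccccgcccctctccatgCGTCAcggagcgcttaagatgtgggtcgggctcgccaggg
Nr4a2, chr2:57124004-57124253, - strand: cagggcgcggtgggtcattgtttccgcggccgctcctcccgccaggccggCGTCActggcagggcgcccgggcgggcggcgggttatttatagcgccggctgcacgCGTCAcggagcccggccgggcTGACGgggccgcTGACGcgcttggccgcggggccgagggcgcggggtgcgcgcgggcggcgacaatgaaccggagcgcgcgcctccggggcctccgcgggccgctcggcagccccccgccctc
Nr4a3, chr4:48045055-48045152, + strand: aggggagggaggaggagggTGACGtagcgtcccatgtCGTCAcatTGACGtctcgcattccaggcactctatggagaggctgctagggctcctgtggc
Btg2, chr1:134079156-134079405, - strand: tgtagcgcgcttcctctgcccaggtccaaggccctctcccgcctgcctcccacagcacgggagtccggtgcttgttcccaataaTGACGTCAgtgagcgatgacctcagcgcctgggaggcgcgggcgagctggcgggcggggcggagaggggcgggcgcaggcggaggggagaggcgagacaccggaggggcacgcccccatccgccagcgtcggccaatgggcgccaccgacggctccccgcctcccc
Dusp1, chr17:26508520-26508722, - strand: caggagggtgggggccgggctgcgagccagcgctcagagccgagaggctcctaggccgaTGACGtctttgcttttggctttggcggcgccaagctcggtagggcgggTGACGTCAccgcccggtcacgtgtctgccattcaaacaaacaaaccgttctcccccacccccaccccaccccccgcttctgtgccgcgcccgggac

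Of the 35 members, 27 had an entry in the promoter table. In the full 250 bases before a start, 18 of the 27 (66.7%) held at least 1 CRE core in at least 1 of their promoters, against 19.8% of the 27025 genes in the table. The complete CRE was found in 3 members (Btg2, Dusp1 and Maff), or 11.1%, against 1.77% of genes. The serum response element was found in Dusp5 and Egr2 (7.41%, against 1.62% of genes), and the EGR motif GCGTGGGCG in Maff (3.70%, against 0.622%). The AP-1 motif, TGAGTCA or TGACTCA, was in none of the 27, against 5.16% of genes. The fourth core of Nr4a3 lies in an annotated exon and is not printed. Members with several annotated starts had more windows to be searched, and these are matches of letters, not measured binding.

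The highest levels of many members were not in neurons but in endothelial nuclei. Nuclei were assigned to classes by the markers they contained after each had been reduced to 3000 UMIs, and UMIs were summed for each class and library. In neurons, oligodendrocytes and endothelial nuclei, all 12 markers of the class were detected in every library. The same markers set the classes, so this is no independent check of them. Mural and fibroblast nuclei numbered under 20 in some libraries and were not tested, so endothelial nuclei, 816 in all, stand for the vascular classes. Neurons here are the excitatory (2359) and inhibitory (4265) nuclei. The glial classes were oligodendrocytes (12168), oligodendrocyte precursors (451), astrocytes (1125) and microglia (1456), each given the same weight. Levels of each gene are in counts in each 1000000 UMIs (CPM) scaled by TMM, a method that sets the bulk of genes equal across sums, and are compared between classes for 1 gene at a time.

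**Figure D1:**
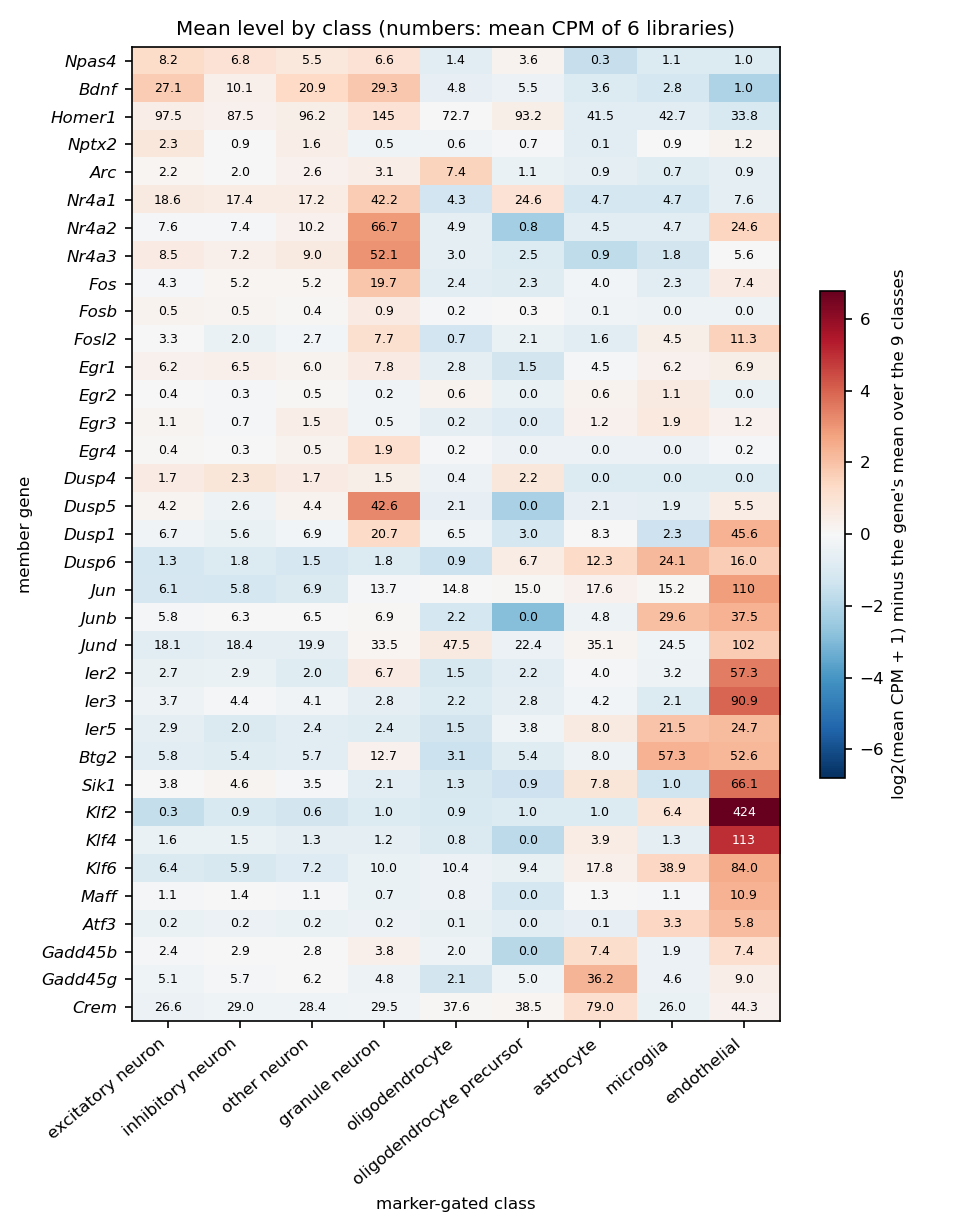
Mean CPM of each of the 35 members (rows) in 9 marker-gated classes (columns), printed in each cell as the mean of 6 libraries. Colour is log2(mean CPM + 1) minus that gene's own mean over the classes, so it is read along a row; Klf2 reaches 424 CPM in endothelial nuclei and Nr4a2 66.7 CPM in granule neurons.

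Klf2 encodes a transcription factor that responds to flow in endothelial cells, and it lies on chromosome 8 from 72319033 to 72321656 (mm10). Its level in endothelial nuclei ran from 315 to 608 CPM over the 6 libraries, with a median of 390 CPM. In excitatory neurons it was between 0 and 1.29 CPM, with no UMI in 4 libraries. Every endothelial sum was above every neuronal sum. Endothelial nuclei held 57.2% of all Klf2 UMIs and 0.622% of all UMIs. After each nucleus was reduced to 1000 UMIs, 33.4% ± 9.57 of endothelial nuclei had a Klf2 UMI (SD, n = 6 libraries), against 0.0515% ± 0.0640 of neurons, 0.105% ± 0.158 of oligodendrocytes and 0.137% ± 0.335 of astrocytes. Between 5 and 108 endothelial nuclei and 8 and 63 neurons of a library had fewer than 1000 UMIs and were left out of these shares. Without that reduction, the shares were 43.1% of endothelial nuclei and 0.394% of neurons.

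Of the 26 members that passed the filter on low counts in the comparison of classes, 15 were higher in endothelial nuclei than in neurons and 4 were lower (edgeR quasi-likelihood test, adjusted p under 0.05 over 14920 genes). Over all genes tested the corresponding shares were 27.8% higher and 31.1% lower. A gene could pass the filter through the class in which it was high, so the count covers those 26 and not the other 9. The median log2 difference of the 26 was 2.01, and that of all genes tested was -0.10. The members' median was 1.25 with a stricter filter on nuclei (25 members) and 0.84 with no filter on low counts, over all 35. The median of all genes tested was lower under these settings too, at -0.56 and -0.58. The stricter filter (at least 1000 genes, at most 1% mitochondrial UMIs) left 11 of the 25 called higher. With it, 5756 of 14096 genes were called in either direction, in place of 8790 of 14920. Mitochondrial RNA was at 12044 to 22176 CPM (of all UMIs) in endothelial sums and 549 to 1920 CPM in neurons. Its part in these differences was not tested. The largest differences were those of Klf2 (log2 difference 9.57 ± 0.28 SE, adjusted p = 3.38e-39 by edgeR) and Klf4 (6.15 ± 0.27, adjusted p = 6.65e-28). Klf4, a relative of Klf2, had an endothelial median of 120 CPM, with a range of 49.3 to 161 CPM. Ier3, Ier2, Sik1 and Jun followed, with log2 differences of 4.33, 4.25, 4.04 and 4.01. Sik1 encodes a kinase that restrains CREB coactivators, and Jun encodes a partner of FOS in the AP-1 factor. Jun was at 67.5 to 132 CPM in endothelial nuclei and averaged 6.06 CPM in excitatory neurons.

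In all, 4 members were lower in endothelial nuclei than in neurons, and 2 of them, Bdnf and Npas4, were at 1 UMI each over all 6 endothelial sums. Bdnf encodes brain-derived neurotrophic factor, and Npas4 a transcription factor that is induced by calcium in neurons. Their adjusted p-values were 4.43e-06 and 0.000981 (edgeR). No fold is given for them, because it would rest on that single UMI. Homer1, which encodes a scaffold of glutamate receptors, was lower by a log2 difference of -1.26 ± 0.17 SE, and Nr4a1, an orphan nuclear receptor, by -1.72 ± 0.46 SE. Without CIH replicate 3, which gave 476 of the 816 endothelial nuclei, Npas4 and Nr4a1 no longer passed (adjusted p = 0.0543 and 0.137 by edgeR), and the 15 higher calls stayed at 15.

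**Figure D2:**
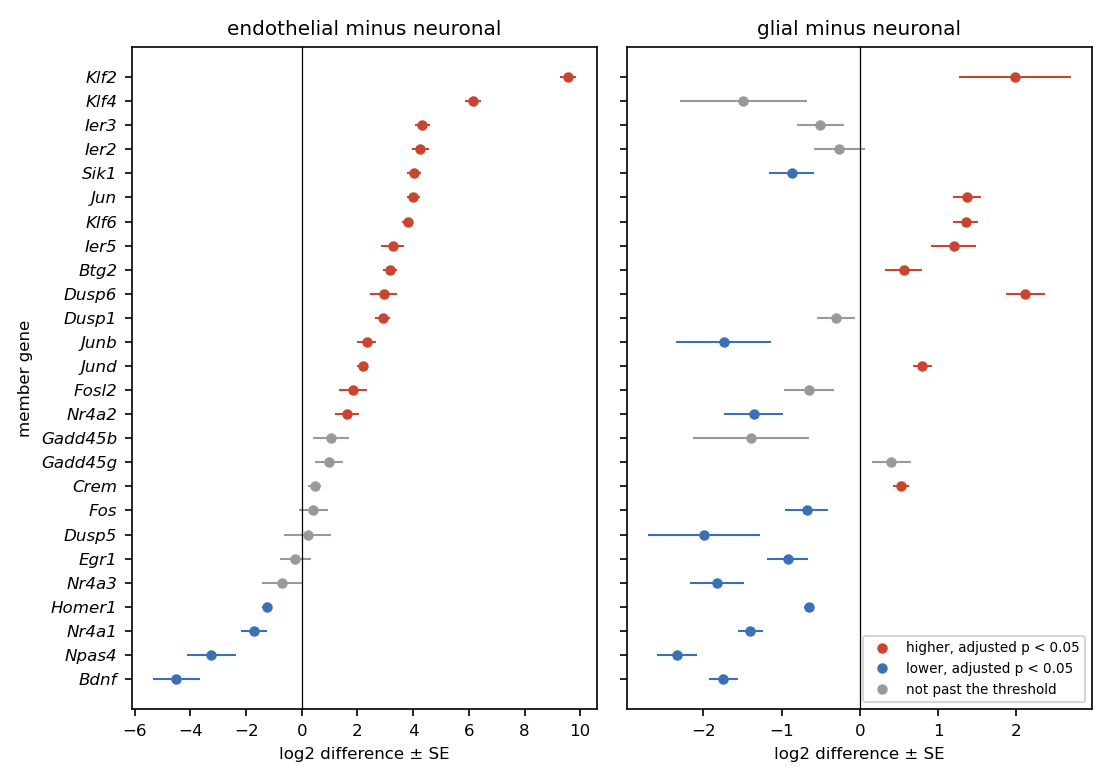
Log2 difference ± SE (derived from the F statistic of edgeR) of the 26 members that passed the filter. Endothelial minus neuronal is on the left and glial minus neuronal on the right, with the same gene order. On the left, 15 points are past the threshold to the right of 0 and 4 to the left of it, of which Bdnf and Npas4 rest on 1 endothelial UMI each.

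Against neurons, 8 of the 26 members were higher in glia and 11 were lower, with a median log2 difference of -0.65 (-0.36 by DESeq2, over all 35). Over all genes tested, 34% were higher and 36.1% lower, with a median of 0.02 (0.30 by DESeq2). Dusp6, a phosphatase that acts on ERK, was higher by 2.11 ± 0.25 SE (adjusted p = 2.74e-11 by edgeR), and Jun and Klf6 by 1.37 and 1.35. Ier5 and Jund were higher by 1.20 and 0.80. Npas4 (-2.33 ± 0.26 SE), Nr4a3 (-1.83 ± 0.34), Bdnf (-1.74 ± 0.19) and Nr4a1 (-1.40 ± 0.16) were lower. Precursors, astrocytes and microglia each held at most 0.407% of the 983 Npas4 UMIs and 0.317% of the 1893 Nr4a3 UMIs. In these 3 classes the values of both genes rest on few UMIs. With single libraries left out, Npas4 ran from -3.37 to -2.27 and Nr4a3 from -2.11 to -1.72. Junb and Dusp5 were also called lower, but neither had a UMI in oligodendrocyte precursors, so their fitted differences depend on how that 0 is handled. Without CIH replicate 3 neither passed (adjusted p = 0.0586 and 0.0669 by edgeR). Klf2 passed as higher in glia (adjusted p = 0.0113 by edgeR) but not without CIH replicate 3 (0.990), without normoxia replicate 3 (0.103) or with doublets removed (0.0710).

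The means of several members were unlike among the glial classes. In microglia, Btg2, an inhibitor of cell division, was at 57.3 ± 16.5 CPM (SD, n = 6 libraries), against 3.1 ± 1.1 CPM in oligodendrocytes and 5.37 ± 1.39 in inhibitory neurons. Dusp6 was at 24.1 ± 7.46 CPM in microglia and 12.3 ± 4.92 CPM in astrocytes, against 0.942 ± 0.460 CPM in oligodendrocytes. Junb, Klf6 and Ier5 had microglial means of 29.6, 38.9 and 21.5 CPM, each above the mean of every neuronal class (at most 6.91, 10.00 and 2.91 CPM). In astrocytes, Gadd45g, which takes part in responses to DNA damage and in DNA demethylation, was at 36.2 ± 15.2 CPM, and Crem, a relative of CREB, at 79.0 ± 17.5 CPM. Crem was between 26.0 and 44.3 CPM in the mean of every other class with 20 nuclei in each library. These comparisons among glial classes are described by their spread and were not tested.

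Endothelial nuclei also exceeded glia. Of the 26 members, 15 were higher in endothelial nuclei than in glia and 2, Bdnf and Homer1, were lower, against 19.5% higher and 19.1% lower over all genes tested. Klf4 and Klf2 led with log2 differences of 7.64 ± 0.37 and 7.58 ± 0.26 SE. Klf4 too had no UMI in oligodendrocyte precursors, so its difference and SE depend on how that 0 is handled. Sik1 (4.91 ± 0.29 SE), Ier3 (4.84 ± 0.31) and Ier2 (4.52 ± 0.35) came next. Bdnf again rests on 1 endothelial UMI: its adjusted p was 0.0478 by edgeR, and ranged from 0.0537 to 0.536 with CIH replicate 1, 2 or 3 or with normoxia replicate 1 or 2 left out.

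Granule neurons, named for the small excitatory neurons of the cerebellum whose markers they carry, were present although the labelled tissue is the pons and medulla. They made up 4.71 to 22.6% of the nuclei of each library, and they held the highest levels of the NR4A genes. Their share was 20.3, 22.6 and 4.71% of nuclei in CIH replicates 1, 2 and 3, and 7.88, 8.38 and 4.85% in normoxia replicates 1, 2 and 3. Nr4a2 averaged 62.1 CPM there, with a range of 52.8 to 88.2 over the 6 libraries, against 7.23 CPM in excitatory and inhibitory neurons together, with a range of 5.32 to 10.7 (CPM of all UMIs of the sum, no TMM). The difference within a library averaged 3.09 ± 0.57 on the log2 scale (SD, n = 6), and all 6 libraries went the same way (exact sign-flip permutation test, two-sided, p = 0.03125, the smallest it can give). Dusp5, an ERK phosphatase of the nucleus, was at 39.7 against 3.11 CPM, a log2 difference of 3.72 ± 0.67. Nr4a3 was at 48.5 against 7.6 CPM, and Fos at 18.3 against 4.71 CPM, both in the same direction in 6 of 6 libraries.

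This comparison was added after the levels had been seen, and it covered the 30 members with at least 50 UMIs in the 2 sums. Of these, 12 were higher in granule neurons in all 6 libraries: Fos, Fosl2, Jund, Nr4a1, Nr4a2, Nr4a3, Btg2, Dusp1, Dusp5, Ier2, Homer1 and Bdnf. Sik1 and Maff were lower in all 6. Over all genes with as many UMIs, 16.3% were higher in all 6 libraries and 29.3% lower. Granule nuclei held 44.1% of all Dusp5 UMIs, 32.6% of Nr4a2 UMIs and 30.8% of Nr4a3 UMIs, and 6.27% of all UMIs. Npas4 did not share the pattern, with 6.19 CPM in granule neurons and 7.03 in the other neurons, higher in 3 libraries and lower in 3.

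Arc encodes a protein that moves glutamate receptors away from the synapse. It lies on chromosome 15 from 74669083 to 74672570 (mm10), with no other annotated gene overlapping it. Of the 9 classes tested, its mean was highest in oligodendrocytes, where it was at 4.31, 9.01 and 4.50 CPM in CIH replicates 1, 2 and 3, and at 7.29, 7.68 and 6.08 CPM in normoxia replicates 1, 2 and 3. In neurons the corresponding values were 1.58, 1.57 and 2.89 CPM, then 1.14, 2.57 and 2.20 CPM. Oligodendrocytes were above neurons in all 6 libraries, by a log2 difference of 1.65 ± 0.72 (SD, n = 6; exact sign-flip permutation test, two-sided, p = 0.03125, the smallest it can give). The test was chosen after the values were seen, and 27.7% of all genes with as many UMIs were higher in oligodendrocytes in all 6 libraries. Oligodendrocytes held 39.4% of Arc UMIs (257 UMIs) and 19.6% of all UMIs. At 1000 UMIs a nucleus, 0.626% ± 0.254 of oligodendrocytes and 0.159% ± 0.0834 of neurons had an Arc UMI. Of the 31 members with enough UMIs, 5 were higher in oligodendrocytes in all 6 libraries (Arc, Jun, Jund, Klf6 and Crem) and 21 were lower, against 43.6% of genes that were lower.

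Between CIH and normoxia, no member passed the test in any of 11 sums of nuclei. These sums were all nuclei, the excitatory and inhibitory neurons together, and 9 classes, and edgeR's adjusted p ranged upward from 0.204 (Nptx2 in neurons that were neither clearly excitatory nor inhibitory, called other neurons here). Few genes of any kind were called: 0.00509% of 19644 genes in all nuclei, 0.202% of 3471 in oligodendrocyte precursors, and 0% in the other 9 sums. At an unadjusted p under 0.05, 13 of 35 members were found in all nuclei (11.1% of all genes), 4 of 29 in neurons (7.4%), 6 of 28 in other neurons (10.4%) and 2 of 21 in oligodendrocytes (9.74%), the last near the share of all genes. The counts were 3 of 20 in excitatory neurons (6.01% of all genes), 4 of 23 in inhibitory neurons (7.29%), 4 of 17 in granule neurons (4.18%) and the 1 member tested in oligodendrocyte precursors (5.13%). DESeq2 on the same sums called Klf2 and Nr4a3 in all nuclei (adjusted p = 0.000235 and 0.0145) and Jund in other neurons (adjusted p = 0.0493), and no member elsewhere. It called 0.845% of all genes in all nuclei and 0.423% in other neurons, more than edgeR did. Without CIH replicate 3, edgeR called 5 members in all nuclei, Nr4a2, Nr4a3, Klf2, Egr3 and Dusp5, all higher in CIH, and 2.76% of all genes, 545 in place of 1. Granule neurons made up 20.3 and 22.6% of nuclei in CIH replicates 1 and 2, and 4.85 to 8.38% in normoxia. They held 32.6, 30.8 and 44.1% of the Nr4a2, Nr4a3 and Dusp5 UMIs, and 4.52 and 1.15% of those of Egr3 and Klf2. Their share of all UMIs was 6.27%. The part of the granule share in these calls was not tested.

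In the sum of all nuclei, 29 of the 35 had a positive log2 fold change (82.9%), with a median of 0.27, against 51.1% of all genes and a median of 0.01. In 15 members every CIH library was above every normoxia library, and in 1, Npas4, every one was below. Over all genes 9.42% were above and 9.94% below. In neurons 21 of the 29 tested were positive, with a median of 0.16. In other neurons 23 of 28 were positive (median 0.32), 6 lay above without overlap and 1, Dusp6, below, against 8.47% and 7.76% of genes. In the same sums of other neurons, the summed markers of 4 other classes were higher in every CIH library: astrocyte markers at 292 to 416 CPM (of all UMIs) against 192 to 213, oligodendrocyte markers at 584 to 694 against 424 to 514, granule markers at 129 to 307 against 82.8 to 102, and oligodendrocyte precursor markers at 969 to 1042 against 867 to 968. Those of endothelial nuclei and microglia overlapped between the groups. The part of the higher markers in the members' values was not tested. The median in other neurons was 0.21 with the stricter filter on nuclei. In oligodendrocytes 15 of 21 were positive (0.28), with 2 above and 0 below, against 7.26% and 8.95% of genes. That median was 0.09 without normoxia replicate 1, 0.12 without CIH replicate 3, 0.16 without normoxia replicate 2 and 0.13 with doublets removed, where 10 of 18 were positive. In excitatory neurons 8 of 20 were positive (-0.05, and 0.00 without CIH replicate 1), with 3 above and 0 below, against 6.18% and 5.22% of genes. In inhibitory neurons 15 of 23 were positive (0.18), with 3 above and 0 below, against 6.33% and 5.91%. In granule neurons 9 of 17 were positive (52.9%, against 51.2% of all genes), with a median of 0.01, 2 above and 1 below, against 5.44% and 4.96%. Without CIH replicate 3 the median there was -0.23, and without normoxia replicate 1 it was -0.15. The members tested in astrocytes, microglia and endothelial nuclei (4, 7 and 6) overlapped between the groups without exception. The genes without overlap were 5.77% above and 5.56% below in astrocytes, 5.4% each way in microglia, and 7.65% above and 6.62% below in endothelial nuclei. In oligodendrocyte precursors the shares were 5.04% and 5.3%, and the genes that passed the test were 0.0576% higher and 0.144% lower. All-gene medians in these sums lay between -0.01 and 0.01. Counts of this kind in all nuclei mix the level in a class with the share of that class, and fewer cells of a type and less RNA per cell cannot be told apart there.

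**Figure D3:**
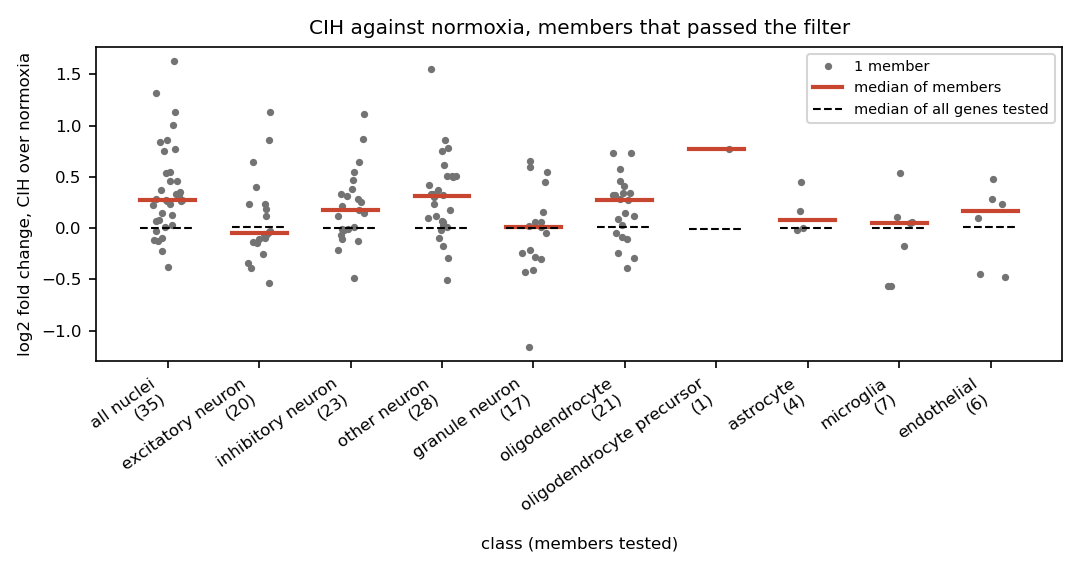
Log2 fold change, CIH over normoxia (edgeR), of each member that passed the filter on low counts, by class, with the number of members under each class name. The red bar is the median of the members and the dashed line that of all genes tested; the members' medians are 0.27 in all nuclei, 0.32 in other neurons and 0.28 in oligodendrocytes, and -0.05 and 0.01 in excitatory and granule neurons; those in oligodendrocytes and granule neurons fall to 0.09 and -0.23 when 1 library is left out.

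In neurons Fos, Egr1, Junb, Arc, Jund and Nr4a1 overlapped between the groups. Fos was at 2.04, 3.70 and 7.57 CPM in CIH replicates 1, 2 and 3, and at 4.78, 4.79 and 5.54 CPM in normoxia replicates 1, 2 and 3 (here and below, CPM of the genes tested in that sum, TMM-scaled). The CIH values lay on both sides of the normoxia values, and the log2 fold change was -0.13 ± 0.37 SE (adjusted p = 0.957 by edgeR). Egr1, a zinc-finger factor, was at 6.76, 4.94 and 5.48 CPM in CIH against 6.67, 7.35 and 5.83 CPM, and the groups overlapped. Junb (5.15 to 6.92 CPM in CIH, 4.88 to 6.67 CPM in normoxia) and Arc (1.54 to 2.96 CPM, 1.13 to 2.56 CPM) overlapped as well. Jund was at 16.5, 17.6 and 26.2 CPM under CIH and 16, 17.0 and 13 CPM in normoxia, with its highest value in CIH replicate 3 (log2 fold change 0.41 ± 0.19 SE, adjusted p = 0.691 by edgeR). Nr4a1 was at 18.9, 15.6 and 19.7 CPM against 16.9, 17.4 and 14.6 CPM and overlapped too.

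In other neurons, where the astrocyte, oligodendrocyte and granule markers given above were also higher in every CIH library, Jund did not overlap between the groups, with 21.5, 21.0 and 29.9 CPM under CIH and 17.3, 14.5 and 11.7 CPM in normoxia. Its log2 fold change was 0.75 ± 0.19 SE, with an adjusted p of 0.234 by edgeR, against 0.0493 by DESeq2. Mean Jund levels were 47.5 CPM in oligodendrocytes, 35.1 in astrocytes and 33.5 in granule neurons, against 19.9 in other neurons (scale of the class comparison). In granule neurons it was again higher in every CIH library, at 30.9, 37.8 and 41.9 CPM against 25.6, 28.6 and 25.7 CPM (adjusted p = 0.991 by edgeR).

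Nr4a3, an inducible nuclear receptor, lay higher in all CIH libraries in neurons, though not in excitatory or inhibitory neurons taken alone. In neurons it was at 9.59, 9.57 and 10.3 CPM in CIH replicates 1, 2 and 3, and at 6.30, 6.02 and 3.86 CPM in normoxia replicates 1, 2 and 3. The log2 fold change was 0.90 ± 0.21 SE, the smallest p of any member in neurons, with an adjusted p of 0.406 (edgeR). Dusp5 showed the same separation, at 5.19, 4.63 and 3.18 CPM against 2.14, 1.56 and 1.97 CPM (1.17 ± 0.28 SE, adjusted p = 0.412 by edgeR). In excitatory neurons alone Dusp5 was at 6.04, 5.19 and 5.66 CPM under CIH and 1.6, 3.42 and 2.45 CPM in normoxia, while in inhibitory neurons the groups overlapped. In 4 members of the 29 (Nr4a3, Dusp5, Homer1 and Bdnf) all CIH libraries were above, and in 1 (Npas4) all were below, against 6.97% and 6.16% of all genes tested.

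Both genes were higher in granule neurons, and markers of granule neurons were also detected in the neuronal sums. There, 6 granule markers together reached 162, 142 and 56.8 CPM (of all UMIs) in CIH replicates 1, 2 and 3 and 47.3, 53.9 and 48.7 CPM in normoxia, so every CIH library was higher. All 6 markers were detected in every library. Markers of other classes were also higher in every CIH library of these neuronal sums. Astrocyte markers were at 243 to 368 CPM against 175 to 186, and oligodendrocyte markers at 447 to 544 against 397 to 402. Oligodendrocyte precursor markers were at 1001 to 1028 CPM against 842 to 971. Those of endothelial nuclei and microglia overlapped between the groups. Within granule neurons themselves the granule markers ran from 1866 to 1930 CPM under CIH and 1743 to 2008 CPM in normoxia. In granule neurons 2 other marker sums were higher in every CIH library. These were astrocyte markers (754 to 991 CPM against 532 to 613) and oligodendrocyte markers (864 to 925 CPM against 741 to 828). There, Nr4a2 was at 53.1, 52.5 and 57.3 CPM in CIH against 54.5, 70.8 and 91.4 CPM, or -0.41 ± 0.18 SE on the log2 scale (adjusted p = 0.991 by edgeR). Whether the markers come from the neurons themselves was not tested. Nor was their part in the neuronal values of Nr4a3, Dusp5, Homer1 and Bdnf, or in the values of members in granule neurons.

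Npas4 went the other way in granule neurons. It was at 3.26, 4.15 and 4.41 CPM in CIH replicates 1, 2 and 3 and at 8.01, 9.93 and 7.99 CPM in normoxia replicates 1, 2 and 3. All 3 CIH libraries were below all 3 normoxia libraries, with a log2 fold change of -1.16 ± 0.31 SE. The adjusted p was 0.991 (edgeR) and the sum held 69 Npas4 UMIs in all. Leaving out single libraries kept the value between -1.23 and -1.03. Non-overlap with CIH lower was found in 1 of the 17 members tested there and in 4.96% of all genes. In excitatory and inhibitory neurons together, Npas4 was at 6.33 to 7.13 CPM under CIH and 7.18 to 7.36 CPM in normoxia, a log2 fold change of -0.08 ± 0.16 SE.

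**Figure D4:**
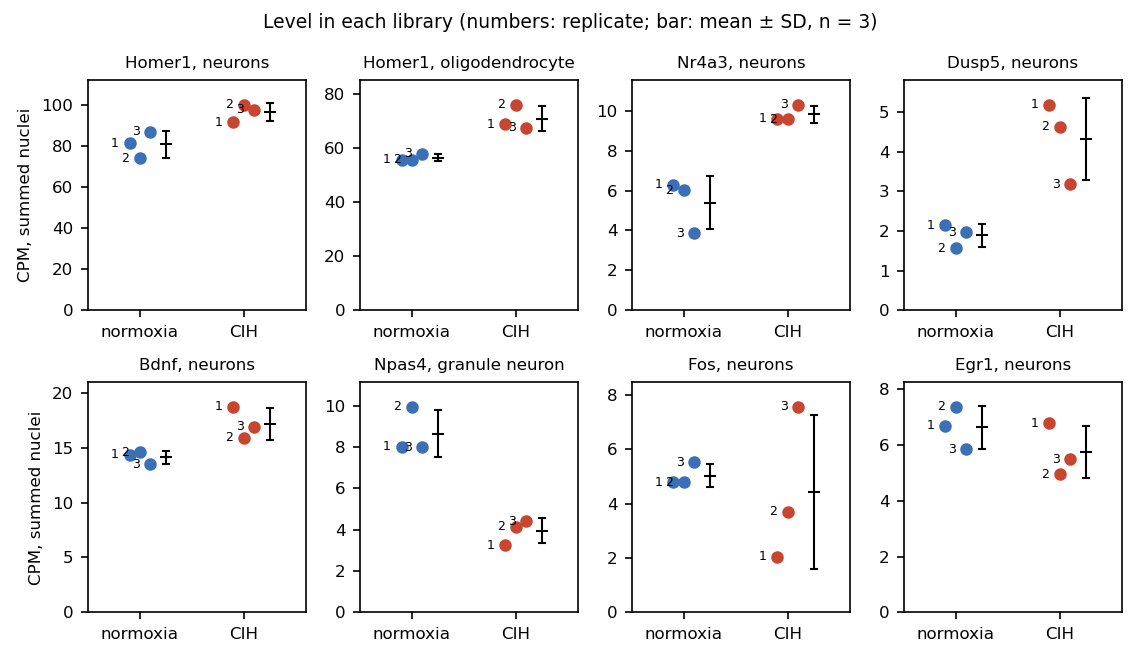
CPM of 7 members in each library, for 8 pairs of gene and class, with normoxia in blue, CIH in red, replicate numbers beside the points and the mean ± SD (n = 3) as a bar. Homer1, Nr4a3, Dusp5 and Bdnf in neurons and Homer1 in oligodendrocytes lie higher in all CIH libraries, Npas4 in granule neurons lies lower, and Fos and Egr1 in neurons overlap; none passed the test across all genes.

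Homer1 was the member whose groups separated in the most classes. It also had the most UMIs of the members (17321). It was tested in oligodendrocyte precursors, astrocytes and microglia, where only 1, 4 and 7 members passed the filter. It spans chromosome 13 from 93299635 to 93405129 (mm10), and 2 further annotated genes, Gm47075 and Gm47088, overlap it on the same strand, so its UMIs could include theirs. In neurons it was at 91.5, 99.996 and 97.6 CPM in CIH replicates 1, 2 and 3 and at 81.3, 73.9 and 86.9 CPM in normoxia replicates 1, 2 and 3 (log2 fold change 0.25 ± 0.08 SE, adjusted p = 0.588 by edgeR). In oligodendrocytes it was at 68.9, 76.1 and 67.5 CPM under CIH and 55.7, 55.6 and 57.9 CPM in normoxia (0.33 ± 0.09 SE, adjusted p = 0.266). All CIH libraries were above all normoxia libraries in excitatory, inhibitory and other neurons, oligodendrocytes and oligodendrocyte precursors. In excitatory neurons Homer1 was at 99.2, 113 and 109 CPM under CIH and 81.9, 72.9 and 88.7 CPM in normoxia (0.40 ± 0.11 SE, adjusted p = 0.635 by edgeR). In oligodendrocyte precursors, where it was the only member tested, it was at 156, 166 and 126 CPM against 91.8, 64.0 and 95.3 CPM (0.77 ± 0.31 SE, adjusted p = 0.834 by edgeR). The groups overlapped in granule neurons (0.01 ± 0.13 SE), in microglia (0.11 ± 0.26 SE) and in astrocytes, where the log2 fold change was -0.02 ± 0.32 SE. In oligodendrocytes 2 of 21 members lay higher in all CIH libraries, the other being Dusp1, as counted above. Dusp1 was at 8.93, 7.01 and 5.45 CPM there in CIH and 4.41, 4.06 and 4.02 CPM in normoxia (0.74 ± 0.24 SE, adjusted p = 0.358 by edgeR). The annotated genes AC122252.4 and AC122252.1 overlap Dusp1 on the same strand, so its UMIs could include theirs.

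Homer1 UMIs were found widely. At 1000 UMIs a nucleus, 12.3% ± 1.18 of granule neurons had one (SD, n = 6 libraries), 8.11% ± 1.46 of neurons, 5.39% ± 0.736 of oligodendrocytes and 2.90% ± 1.85 of endothelial nuclei. The summed granule markers in oligodendrocytes were at 128 to 237 CPM under CIH and 113 to 165 CPM in normoxia, and the neuronal markers there at 1213 to 1481 CPM under CIH and 1557 to 1709 CPM in normoxia. Whether RNA from other nuclei moved Homer1 in oligodendrocytes was not tested.

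In neurons Bdnf was at 18.7, 15.9 and 16.9 CPM under CIH against 14.4, 14.6 and 13.5 CPM, without overlap (log2 fold change 0.28 ± 0.13 SE, adjusted p = 0.673 by edgeR). In inhibitory neurons it was at 13.7, 9.79 and 12.3 CPM against 8.88, 7.31 and 6.94 CPM, and in granule neurons at 29.9, 35.7 and 33.1 CPM against 24, 23.0 and 20.4 CPM, again without overlap. Its log2 fold changes there were 0.65 ± 0.20 and 0.55 ± 0.17 SE, with adjusted p-values of 0.585 and 0.991 (edgeR). Excitatory neurons, which held more Bdnf per UMI than inhibitory neurons (27.1 ± 2.00 against 10.1 ± 2.73 CPM on the scale of the class comparison, SD, n = 6), did not separate between the groups. Nptx2, a secreted pentraxin that clusters glutamate receptors, had the largest difference of the members tested in other neurons, from 75 UMIs: 1.93, 2.90 and 2.05 CPM under CIH and 0.666, 0.900 and 0.743 CPM in normoxia (1.55 ± 0.33 SE, adjusted p = 0.204 by edgeR).

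Klf2 had the largest log2 fold change of all members in all nuclei and no separation within endothelial nuclei. In all nuclei it was at 5.25, 5.06 and 10.7 CPM in CIH replicates 1, 2 and 3 and at 2.45, 2.11 and 2.26 CPM in normoxia replicates 1, 2 and 3, or 1.63 ± 0.31 SE on the log2 scale (adjusted p = 0.257 by edgeR). Without CIH replicate 3, the value was 1.18 with an adjusted p of 0.00872. Endothelial nuclei made up 1.93, 1.48 and 4.47% of nuclei in CIH and 0.894, 0.770 and 1.13% in normoxia. In endothelial nuclei Klf2 was at 799, 1020 and 430 CPM in CIH against 559, 754 and 541 CPM in normoxia, and the groups overlapped (0.24 ± 0.30 SE, adjusted p = 0.876 by edgeR). These sums held 42 to 476 nuclei a library. The 12 endothelial markers together were at 168 to 555 CPM (of all UMIs) in all nuclei under CIH and 107 to 148 CPM in normoxia, and the part of the endothelial share in the value of all nuclei was not tested. Klf4 lay higher in all CIH libraries too in all nuclei, at 3.15, 2.37 and 3.05 CPM under CIH and 1.72, 1.33 and 2.02 CPM in normoxia (0.75 ± 0.22 SE, adjusted p = 0.365 by edgeR).

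**Figure D5:**
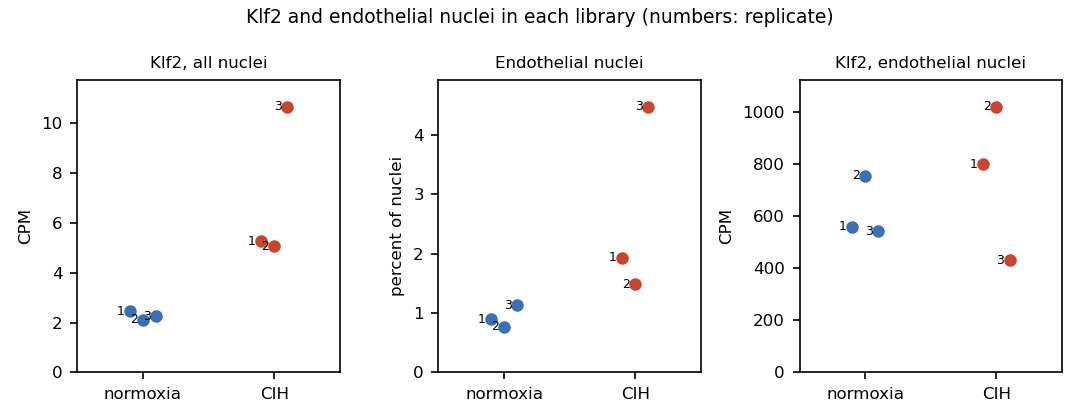
Klf2 in all nuclei (CPM), endothelial nuclei as a percent of all nuclei, and Klf2 within endothelial nuclei (CPM), in each library with its replicate number. The CIH libraries lie above the normoxia libraries in the first 2 panels, with CIH replicate 3 highest at 10.7 CPM and 4.47%, and the groups overlap in the last, where CIH replicate 3 is lowest at 430 CPM.

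The remaining members in endothelial nuclei, microglia and astrocytes overlapped between the groups. In endothelial nuclei 6 members were tested: Jun was at 105, 209 and 137 CPM under CIH and 227, 229 and 161 CPM in normoxia (log2 fold change -0.48 ± 0.32 SE, adjusted p = 0.726 by edgeR). In microglia 7 were tested, and the smallest p was that of Dusp6 (32.3, 20.1 and 18.4 CPM under CIH, then 35.3, 26.9 and 41.3 CPM in normoxia). In astrocytes 4 were tested, and the smallest p was that of Gadd45g (21.5, 67.2 and 46.8 CPM in CIH, 45.8, 26.3 and 32.0 CPM in normoxia). Of the 35 members, 29 were tested in neurons. Those below the filter on low counts there, and so not tested, included Klf2. They also included Fosb, Egr2, Egr4 and Atf3, at 27, 21, 14 and 11 UMIs in neurons.

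The difference between classes in the CIH effect was tested in its own right, on log2 CPM differences within libraries (limma). Among 21 members in neurons and oligodendrocytes, 5 in neurons and endothelial nuclei, and 4 in oligodendrocytes and endothelial nuclei, none passed, and neither did any gene (0% of 13903, 2827 and 2810). The smallest adjusted p was that of Ier3, a regulator of survival, in neurons minus oligodendrocytes (difference -1.17 ± 0.32 SE, adjusted p = 0.405 by limma). Only 1 member, Ier3, had an unadjusted p under 0.05 in any of the 3 comparisons.

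Among genes that act before or beside the members, none was called. The 38 upstream regulators, which hold CREB and its coactivators, calcium-dependent kinases, MAP kinases and MEF2 factors, had no call in any sum. In neurons, 29 of 38 were positive with a median log2 fold change of 0.07. The smallest p there was that of Crebbp, a coactivator of CREB, at 245, 247 and 238 CPM under CIH and 196, 210 and 219 CPM in normoxia (0.22 ± 0.07 SE, adjusted p = 0.545 by edgeR). Camk4, the calcium-dependent kinase that is abundant in granule neurons, was at 242, 233 and 154 CPM under CIH and 152, 152 and 175 CPM in normoxia and overlapped. Of the 38 other activity-responsive genes, 30 were tested in neurons and 18 were positive (median 0.06). Rasgrp1, an activator of RAS, was at 6.45, 8.33 and 10.4 CPM under CIH and 3.27, 5.46 and 5.54 CPM in normoxia (0.81 ± 0.25 SE, adjusted p = 0.568 by edgeR).

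The stress and heat shock list had 14 of its 18 genes with an unambiguous symbol tested in neurons, of which 13 were positive with a median log2 fold change of 0.42, and none was called. Mt1 and Mt2, metallothioneins that bind zinc and respond to stress, were highest in CIH replicate 3: Mt1 was at 38.5, 28.1 and 78.8 CPM under CIH and 19.3, 16.4 and 26.2 CPM in normoxia (1.24 ± 0.33 SE, adjusted p = 0.474 by edgeR). Hsp90aa1, a chaperone, was at 105, 102 and 219 CPM against 77.3, 85.7 and 94.1 CPM. In oligodendrocytes 13 of 14 were positive (median 0.38), and in endothelial nuclei 2 of 6 (median -0.39). CIH replicate 3 also held the most mitochondrial RNA in neurons, 1920 CPM against 549 to 729 CPM in the other 5 libraries. The part of RNA quality in these values was not tested.

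In single nuclei the members were sparse. Homer1 had 17321 UMIs in 9761 nuclei (25%), while Fos had 1112 UMIs in 969 nuclei (2.49%) and Npas4 983 UMIs in 867 nuclei (2.22%). Of the Nr4a3 UMIs, 48.4% were in nuclei with 2 or more, and 1 nucleus held 18. This share was higher for Homer1 (63.4%), Klf2 (57.6%) and Bdnf (52.1%) and close for Nr4a2 (46.7%). It was lower for the other members, such as Arc (9.04%). At 1000 UMIs a nucleus, the share of neurons with a UMI of at least 1 of 13 members (Arc, Fos, Fosb, Fosl2, Junb, Npas4 and the EGR and NR4A genes) was 6.05, 5.39 and 6.91% in CIH and 5.73, 5.78 and 5.2% in normoxia. In granule neurons the share was 14.3, 16.9 and 18.1% in CIH and 19.5, 18.2 and 21.1% in normoxia, lower in every CIH library, though CIH replicate 3 and normoxia replicate 2 were close. In oligodendrocytes it was between 1.63 and 2.23% in all 6 libraries. Nuclei with UMIs of 3 or more of the 13 numbered 0 to 2 in neurons and 1 to 5 in granule neurons of any library. These are descriptions of a set chosen among the members, and no test was made on them.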

How the data were processed

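Single-nucleus RNA was counted with the 10x 3' v3.1 kit in 3 CIH and 3 normoxia libraries. The authors deposited UMI counts per gene and nucleus as filtered matrices. The submitters' processing notes name Cell Ranger 3.1.0, Seurat 4.0 and mm10, while the file headers name Cell Ranger 6.1.2. Whether introns were counted is not given in the sources used here. The deposited counts are not scaled for length, so levels are not compared between genes.

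Nuclei were kept from 500 genes upward where mitochondrial UMIs made up no more than 5%, and the barcodes of normoxia replicate 2 that it shared with CIH replicate 1 were set aside. A nucleus, reduced to 3000 UMIs, was assigned to the class of whose markers it held the largest share. It had to hold at least 3 of them, at a share at least 1.5 times that of the next class. That left 5335 nuclei (13.7%) unassigned, and 13.0% of endothelial nuclei lay near the threshold. Doublets were removed only in an alternative. UMIs were summed per class and library, with at least 20 nuclei in each library, and tested with edgeR 4.0.16 (quasi-likelihood, TMM, filter on low counts, Benjamini-Hochberg adjustment over all genes tested, threshold 0.05) in R 4.3.3. Classes were compared in one edgeR fit with the library as a term. The SE given with an edgeR value is not an error that edgeR reports. It is the absolute log2 difference divided by the square root of the test's F statistic. Differences between classes in the CIH effect used limma 3.58.1, with a prior count of 1, and DESeq2 1.42.0 was an alternative. The tests were also run on counts simulated from the real means and library sizes with a fixed dispersion, and the outcome is not given here. Total UMIs were 26733243 to 46754345 a library, and intervals and errors rest on 3 libraries a group.

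The members, gene lists, markers and tests were chosen with earlier results of these data known. Values in every library are given for some of the members of smallest p in a class (up to 4). They are also given for the classic members in neurons, except Junb and Npas4, which are given there by range. The largest differences between classes are given by their log2 difference, their range or their UMIs. The test within libraries was added after the levels were seen. Positions are from GENCODE M21 (mm10) and promoters from RefSeq (GRCm38.p6). Replicate numbers are shared between groups, so the deviations of same-numbered libraries from their group means were correlated. The correlations were 0.12, 0.18 and 0.27 in neurons and 0.36, 0.28 and 0.52 in oligodendrocytes, and 0.06, 0.26 and 0.20 in all nuclei. Every same-numbered pair was thus over 0.1 in neurons and oligodendrocytes but not in all nuclei. CIH replicate 1 with normoxia replicate 2, and CIH replicate 2 with normoxia replicate 1, were about as high. They gave 0.17 and 0.14 in neurons, 0.33 and 0.31 in oligodendrocytes, and 0.19 and 0.10 in all nuclei. Unlike pairs with a replicate 3 were negative. The correlations therefore do not single out a pairing by number, and no label gives one. The values reported have no replicate block, and the fit with it was run in every class as an alternative.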

Additional observations from a re-analysis of the deposited data

Results flagged for a closer look

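CIH replicate 1 and normoxia replicate 2 had 1563 cell barcodes in common, which drew attention because the other pairs of libraries had 3 to 38. The same barcode held a median of 9858 UMIs in CIH replicate 1 and 1232 in normoxia replicate 2, and the profiles of a shared barcode had a median cosine of 0.606, against 0.398 for different barcodes. The copies in normoxia replicate 2 held 6.33% of its UMIs. With them kept, edgeR called 0 members between CIH and normoxia in every class, as without them. Where the shared barcodes came from was not tested.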

How the results depend on the processing

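Between CIH and normoxia, the count of members called was 0 under edgeR in every class, and it moved under 2 settings. DESeq2 called 2 in all nuclei and 1 in other neurons, and leaving out single libraries gave 0 to 5 in all nuclei, with 5 only without CIH replicate 3. Over all genes, those settings called 237, 111 and 545. For endothelial nuclei against neurons, the 4 lower members became 2 to 5 when single libraries were left out. For endothelial nuclei against glia, the 2 lower members became 0 with library sizes alone, 1 with DESeq2, 0 with a stricter filter on nuclei (1000 genes or more, mitochondrial share up to 1%), 1 with doublets removed, and 1 to 2 with single libraries left out. The other 255 counts stayed within 1.5 times the value reported. The cause of these moves was not tested.

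Values near 0 changed sign. With single libraries left out, Arc in neurons ran from -0.38 to 0.23, Fos from -0.82 to 0.19 and Junb from -0.098 to 0.15, while in astrocytes Homer1 ran from -0.14 to 0.13, Crem from -0.23 to 0.35 and Jund from -0.081 to 0.33, and Klf2 in endothelial nuclei from -0.0087 to 0.56. With doublets removed, Arc in neurons was -0.060, and Homer1 and Crem in astrocytes were 0.071 and -0.088. Homer1 in astrocytes was 0.024 with no filter on low counts and 0.0021 with a stricter gate. Crem there was -0.14 with the stricter filter on nuclei and -0.011 with shared barcodes kept. Of the other values for single genes, 1038 kept direction and side of the threshold, 20 lost the call and 5 gained one.

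With the replicate block, edgeR again called 0 members in every class, and the block changed no other call of a member. Homer1 was then 0.26 in neurons (adjusted p = 0.409 by edgeR) and 0.33 in oligodendrocytes (adjusted p = 0.160), and Npas4 in granule neurons was -1.17 (adjusted p = 0.359). Over all genes the block called 114 in oligodendrocytes, 11 in granule neurons, 7 in microglia and 1 in excitatory neurons, against 0 without it, and 6 in oligodendrocyte precursors, against 7. The stricter filter on nuclei left no endothelial member to test between CIH and normoxia. Rare members and classes with few nuclei limit what this depth can show.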
